A study of Mus musculus with 16 samples.

Results

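The main effect of the Dp16 duplication on the mouse cortex was measured by setting the 8 libraries from duplication carriers, 4 Dp16 and 4 5xFAD-Dp16, against the 8 from mice without it, 4 wild-type and 4 5xFAD, with 5xFAD status and sex as additive terms. These are all 16 libraries of the series, and 17019 genes were tested. Polyadenylated RNA came from brain cortex, and the labels give 1 sample number, a sex and an age of 5 months for each library. The wild-type mice are labelled C57BL/6J, and the labels give no further strain detail for the others. Among carriers there were 6 males and 2 females, and among non-carriers 4 males and 4 females, because the 5xFAD-Dp16 mice were all males. Nothing in the labels says whether the samples are separate animals or littermates, so the p-values below measure only the spread between these samples, which may be technical.

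Dp16 is a mouse model of Down syndrome in which a long stretch of chromosome 16, carrying counterparts of many human chromosome 21 genes, is present in 3 copies in place of 2. A gene whose transcript follows its copy number would therefore stand at 1.5 times the level of a mouse without the duplication, or 0.58 on the log2 scale, while feedback on the transcript or its stability can hold a gene below that. 5xFAD mice are an amyloid model of familial Alzheimer disease whose transgenes are under the neuronal Thy1 promoter, so each of the compared groups holds mice with and without amyloid. The duplicated segment was taken as positions 75540514 to 97962622 of chromosome 16 (GRCm38), between the outer ends of Lipi and Zbtb21, which spans 22.4 Mb. The count table lists 384 genes there, 147 of them protein-coding, and 105 of the 384 were expressed enough to be tested. Of the other 279, 193 had 0 reads in all libraries.

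The 3 interferon receptor genes of the segment that passed the test lie in a single cluster, which also holds Il10rb and the lncRNA A930006K02Rik, and are shown here because their promoters are the regulatory sequence that the extra copy carries along with them. The lines give the 250 bases before the first RefSeq start of each gene, on the plus strand of GRCm38.p6, at chr16:91372533-91372782 for Ifnar2, chr16:91484965-91485214 for Ifnar1 and chr16:91546809-91547058 for Ifngr2. Capitals mark matches, on either strand, to a GC box (GGGCGG), to a CCAAT box, or to the ETS factor motif CCGGAAG. The last is bound by GABPA, whose gene Gabpa is also on the segment. No window held TATAAA or the interferon-stimulated response element, searched as GAAA repeated after any 2 bases.
Ifnar2: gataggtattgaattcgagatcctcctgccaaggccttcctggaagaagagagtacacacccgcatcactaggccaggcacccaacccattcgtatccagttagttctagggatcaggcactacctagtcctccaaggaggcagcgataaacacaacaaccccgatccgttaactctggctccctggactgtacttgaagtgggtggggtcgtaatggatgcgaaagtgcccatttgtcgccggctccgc
Ifnar1: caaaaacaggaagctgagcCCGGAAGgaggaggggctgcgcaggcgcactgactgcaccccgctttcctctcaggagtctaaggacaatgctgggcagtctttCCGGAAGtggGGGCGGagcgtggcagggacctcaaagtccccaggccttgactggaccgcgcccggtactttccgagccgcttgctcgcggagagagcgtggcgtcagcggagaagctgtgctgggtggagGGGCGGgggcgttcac
Ifngr2: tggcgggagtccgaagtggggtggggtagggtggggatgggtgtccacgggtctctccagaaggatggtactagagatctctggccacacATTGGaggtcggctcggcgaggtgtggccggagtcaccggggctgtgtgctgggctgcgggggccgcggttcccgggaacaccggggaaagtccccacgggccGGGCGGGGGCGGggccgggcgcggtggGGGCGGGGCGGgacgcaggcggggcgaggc

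The 3 windows differ in composition although the genes share a neighbourhood. Ifnar2 has 11 CpG pairs, 54.0% G and C, and no match to the 5 motifs. Ifnar1 has 19 CpG pairs, 65.6% G and C, 2 GC boxes and 2 ETS matches, and Ifngr2 has 25 CpG pairs, 74.0% G and C, 4 GC boxes and 1 CCAAT box. Among the 81 segment genes with a promoter in the RefSeq table, 53.1% held a GC box and 17.3% an ETS match, against 56.8% and 12.3% of the 12273 tested genes with one, counting windows of the same length. The interferon element was in 1.23% of the segment windows and in 2.5% of the tested genes' windows. A match describes the letters and does not show a bound site.

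The segment also carries 7 microRNA hairpins. Polyadenylated RNA libraries do not measure the mature microRNAs, so they were read only through the host transcripts. The arms of the hairpins in Mir99ahg and Mir155hg that carry the best known activity are shown from RefSeq (GRCm38.p6), with miR-6367, which lies in no annotated gene, because it shares a seed with one of them. The seed, bases 2 to 8, is in capitals.
miR-99a-5p: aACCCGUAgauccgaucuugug
let-7c-5p: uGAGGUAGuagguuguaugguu
miR-125b-5p: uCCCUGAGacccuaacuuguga
miR-155-5p: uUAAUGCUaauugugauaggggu
miR-6367: uCCCUGAGacccugguucagga

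miR-125b-5p and miR-6367 share the seed CCCUGAG, and the other 3 seeds differ from it and from each other. The first 3 microRNAs lie within Mir99ahg, a long noncoding host transcript (chromosome 16, 77236317 to 77773427). Mir99ahg stood at 3.52 to 8.93 CPM (counts per 1e+06 reads, after scaling of the libraries) in non-carriers, with a median of 5.27, and at 3.82 to 8.08 in carriers, with a median of 6.13. The groups overlapped throughout, the difference was 0.11 on the log2 scale (SE 0.218), and its 95% interval of 0.784-fold to 1.48-fold ended below 1.5-fold. The sign of this difference turned when the gene-length trend described below was removed (-0.05) and among males (-0.29). Mir155hg, the host of miR-155, had too few reads to be tested.

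Duplication carriers gave more reads from the segment in each library. The share of all counted reads that fell on the 384 segment genes was 0.625 to 0.676% in the 8 non-carriers and 0.912 to 1.02% in the 8 carriers, with no overlap, and the share from the rest of chromosome 16 was 1.96 to 2.12% in non-carriers and 1.97 to 2.103% in carriers. Over the 92 segment genes at 1 CPM or more, each carrier library's median gene stood at 1.36-fold to 1.58-fold of the mean log2 level of non-carriers with the same 5xFAD status. The Dp16 libraries had 1.496, 1.55, 1.36 and 1.58, and the 5xFAD-Dp16 libraries 1.42, 1.43, 1.46 and 1.41. The same measure was 0.965-fold to 1.05-fold in the non-carriers.

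**Figure D1:**
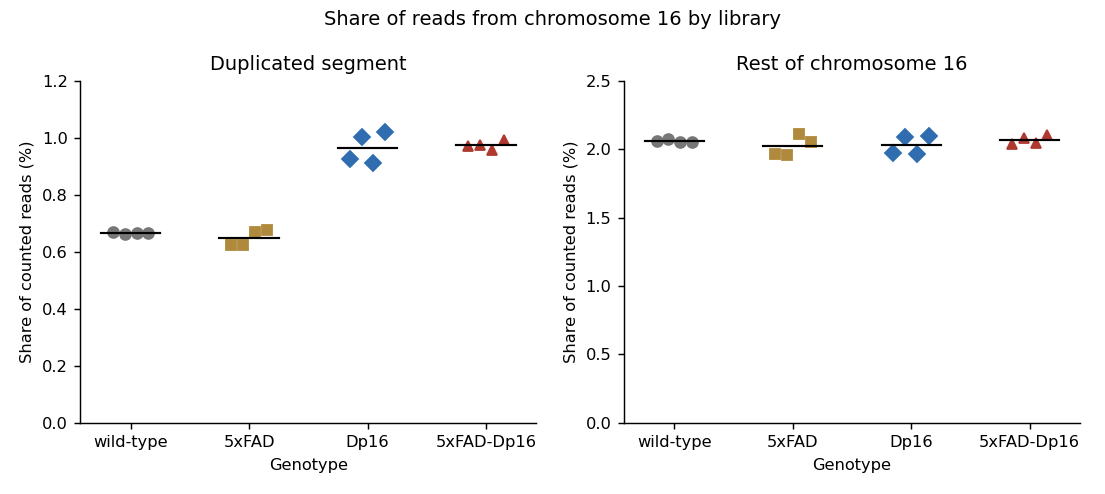
Share of each library's counted reads (%, vertical axes) from genes of the duplicated segment (left) and from the rest of chromosome 16 (right), by genotype. Points are single libraries and lines are means of 4. In the left panel the 8 carrier libraries, at 0.912 to 1.02%, lie above the 8 non-carriers, at 0.625 to 0.676%, and in the right panel the genotypes overlap.

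Library totals ran from 12483286 to 20385010 counted reads, and mitochondrial genes took 7.71 to 10.99% of them. The sex-linked transcripts of each library matched its label. Thy1, whose promoter drives the 5xFAD transgenes, was 0.93 higher on the log2 scale with 5xFAD in the same model, and carriers and non-carriers differed by 0.01 (SE 0.0796, with either sign when single libraries were left out). Markers of cortical excitatory neurons were present in each library, with summed levels of 2984 to 5701 CPM in carriers and 2283 to 5388 in non-carriers. Some libraries held more RNA of long genes than others. Across genes, the Spearman correlation of a library's deviation with gene length ran from -0.462 to 0.451, and in the 10 males it was negative in the 4 non-carriers, -0.462 to -0.128, and positive in 5 of the 6 carriers, whose range was -0.142 to 0.451. Its part in the results was not tested beyond the values given with that trend removed.

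In the pooled comparison 13 genes had a Benjamini-Hochberg adjusted p of at most 0.05 by edgeR's quasi-likelihood test, which is 0.0764% of those tested. All 13 were higher in carriers, and 0 were lower. Of these, 12 lie in the segment, which is 11.4% of its 105 tested genes: Jam2, Dyrk1a, Ifngr2, Tmem50b, Ifnar1, B3galt5, Ttc3, Ncam2, Rcan1, Ifnar2, Ltn1 and C2cd2. The remaining one is the nonagouti gene on chromosome 2. At an unadjusted p under 0.05, 831 genes were higher (4.88% of those tested) and 1047 lower (6.15%), and of the segment genes 62 were higher and 1 lower. DESeq2's Wald test called 59 higher and 25 lower, of which 36 higher ones and no lower one were in the segment.

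All 12 are protein-coding, and they are spread over the segment. From its proximal end they run Ncam2 (ENSMUSG00000022762.18, 81200697 to 81626828), Jam2 (ENSMUSG00000053062.16, 84774123 to 84825928) and Ltn1 (ENSMUSG00000052299.9, 87376651 to 87432612). A cluster follows with Ifnar2 (ENSMUSG00000022971.18, 91372783 to 91405589), Ifnar1 (ENSMUSG00000022967.13, 91485238 to 91507441), Ifngr2 (ENSMUSG00000022965.8, 91547072 to 91565623) and Tmem50b (ENSMUSG00000022964.14, 91574503 to 91597800). Rcan1 (ENSMUSG00000022951.16, 92391953 to 92470867), Ttc3 (ENSMUSG00000040785.19, 94370618 to 94469343) and Dyrk1a (ENSMUSG00000022897.15, 94570010 to 94695517) come next. B3galt5 (ENSMUSG00000074892.9, 96235801 to 96319859) and C2cd2 (ENSMUSG00000045975.8, 97855209 to 97962598) lie toward the distal end.

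The 8 carriers lay above the 8 non-carriers without overlap in 20 genes, 0.118% of those tested, and 17 of these were segment genes. They are the 12 that passed and Brwd1, Ripk4, Rwdd2b, Gabpa and Morc3, whose adjusted p-values ran from 0.0598 to 0.0816. Carriers lay below all non-carriers in 3 genes, 0.0176%, none of them in the segment.

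The whole segment was shifted rather than the called genes alone. Its 105 tested genes had a median difference of 0.49 on the log2 scale, or 1.40-fold, with quartiles of 1.23-fold and 1.67-fold. A positive difference was seen in 101 of the 105 (96.2%), against 51.4% of the 16914 other genes, and the median was -0.009 for the 416 tested genes elsewhere on chromosome 16. By position, the first 35 genes had a median of 0.48, the middle 35 of 0.41 and the last 35 of 0.55. The 88 protein-coding genes had a median of 1.46-fold with 87 positive, and the 17 others, long noncoding RNAs, pseudogenes and provisional gene models, a median of 1.15-fold with 14 positive. The noncoding genes had a median mean level of 0.33 log2 CPM against 4.58 for the coding ones. Their medians were 0.22 and 0.50 on the log2 scale once the length trend was removed.

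The 95% interval of a gene's difference says how well it could be placed. For 88 of the 105 segment genes the interval covered 1.5-fold, and for 62 it lay wholly above no change. Of the 105, 53 were in both sets, and 35 covered both no change and 1.5-fold. For 13 genes the interval ended below 1.5-fold, and 5 of these had an interval above no change: Gart, Son, Cfap298, Usp16 and Paxbp1, all protein-coding. For 4 genes, C2cd2, Kcnj6, Ripk4 and Chaf1b, the whole interval lay above 1.5-fold.

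**Figure D2:**
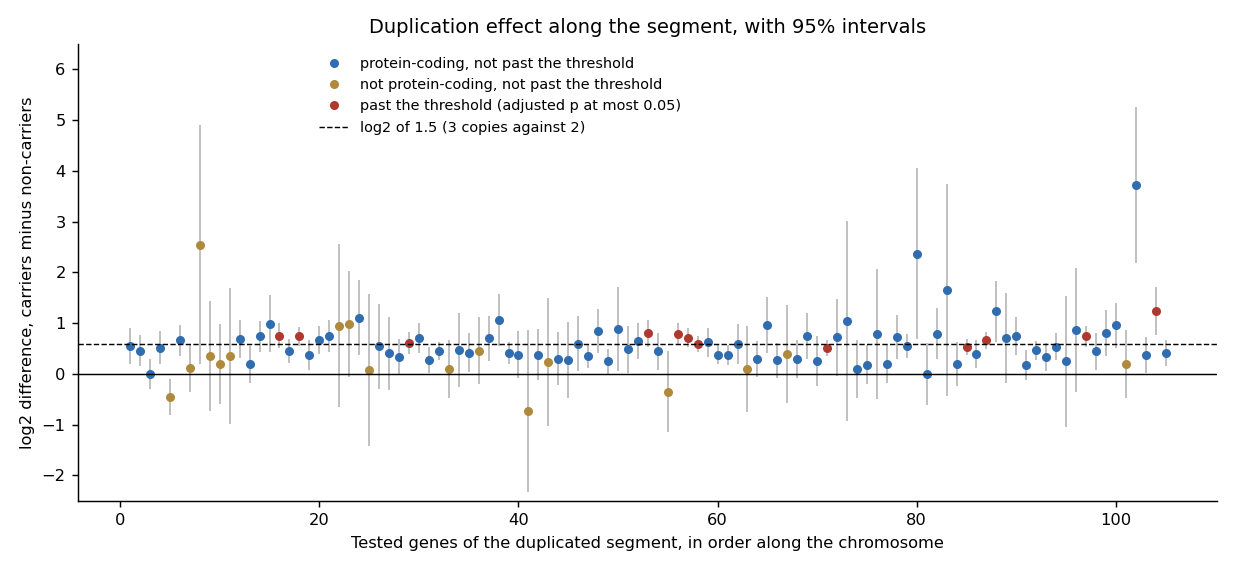
Difference between carriers and non-carriers (log2, vertical axis) for the 105 tested genes of the duplicated segment, in their order along the chromosome (horizontal axis). Points are fitted differences, grey bars 95% intervals, red points genes past the threshold, and the dashed line 1.5-fold. Of the points, 101 lie above 0, and the called genes are spread along the segment.

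Just outside the segment the differences were small or had a large SE. The last 5 tested genes before it, Cadm2, Gbe1, Robo1, Robo2 and the lncRNA Gm49678, had log2 differences of -0.03, 0.12, 0.02, -0.01 and 0.73, and their SE values were 0.0739, 0.145, 0.220, 0.115 and 0.573. The only 2 tested genes after it, B230307C23Rik and A630089N07Rik, had -0.01 (SE 0.249) and -0.31 (SE 0.294). None passed the test, and those of Cadm2, Gbe1, Robo1, Robo2 and B230307C23Rik took either sign under the alternative settings.

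The interferon and cytokine receptors of the segment sit on the cell surface and pass signals to JAK kinases and STAT factors. All 4 tested members were higher, with a median of 0.75 on the log2 scale against 0.01 over all tested genes, and 3 of the 4 passed. Ifngr2, the signalling subunit of the interferon gamma receptor, stood at 49.9 to 77.7 CPM in non-carriers (median 59.0) and at 90.4 to 108.6 in carriers (median 99.2). The groups did not overlap, and the difference was 1.64-fold (95% interval 1.44 to 1.87, adjusted p = 0.00119). Ifnar1, a subunit of the type I interferon receptor, stood at 23.2 to 37.3 CPM (median 31.0) in non-carriers and 45.1 to 55.6 (median 49.3) in carriers. Each carrier again lay above each non-carrier, with a difference of 1.71-fold (1.47 to 2.00, adjusted p = 0.00198).

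Ifnar2, the other type I receptor subunit, stood at 10.6 to 19.1 CPM (median 13.5) in non-carriers and 19.2 to 27.2 (median 22.5) in carriers. The highest non-carrier, wild-type replicate 4, came close to the lowest carrier, and the difference was 1.74-fold (1.45 to 2.095, adjusted p = 0.0101). Without wild-type replicate 1 this call ended (adjusted p = 0.0617). Il10rb, the shared receptor chain for interleukin-10 and interferon lambda, had medians of 8.72 and 11.7 CPM, and 5 of 8 carriers lay above the highest non-carrier (1.36-fold, adjusted p = 0.448).

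Downstream of these receptors no listed gene off chromosome 16 passed. Of 48 tested interferon-stimulated genes off chromosome 16, 27 were positive with a median of 0.04 on the log2 scale, and none passed. Their median was 0.30 between Dp16 and wild-type and -0.16 between 5xFAD-Dp16 and 5xFAD. The 17 tested genes of interferon receptor signalling off chromosome 16, among them the kinases and STAT factors, had a median of 0.12 with 10 positive and none past the threshold. Mx2, an interferon-induced GTPase gene inside the segment that is annotated as a polymorphic pseudogene, stood at 0.525 to 1.65 CPM in non-carriers and 0.658 to 1.77 in carriers, with medians of 1.30 and 1.05 and a fitted log2 difference of 0.20 (SE 0.319). Its neighbour Mx1 had too few reads to be tested.

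Kinases and other signalling genes of the segment, a list that also holds channels and transcription factors, gave 12 of 12 positive differences, with a median of 0.72 on the log2 scale, and 2 passed. Dyrk1a encodes a kinase that phosphorylates, among others, tau and NFAT factors. It stood at 56.8 to 76.8 CPM in non-carriers (median 66.0) and at 95.1 to 124 in carriers (median 105). Dp16 libraries held 97.2, 103, 102.7 and 95.1 CPM and 5xFAD-Dp16 libraries 124, 107, 118 and 114, so all 8 carriers lay above the highest non-carrier. The difference was 1.58-fold (1.41 to 1.78, adjusted p = 0.00105).

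Rcan1, an inhibitor of the phosphatase calcineurin, stood at 54.5 to 73.0 CPM (median 65.4) in non-carriers and 84.3 to 100.2 (median 93.3) in carriers. There was no overlap, and the difference was 1.42-fold (1.27 to 1.59, adjusted p = 0.00751). The 17 tested members of the calcineurin and NFAT list outside the segment had a median of 0.10 with none past the threshold. Kcnj6, an inwardly rectifying potassium channel, had medians of 4.43 and 9.06 CPM with 7 of 8 carriers above the highest non-carrier (2.35-fold, 1.55 to 3.57, adjusted p = 0.203). Tiam1, an activator of the GTPase Rac, had medians of 18.3 and 36.7 CPM but overlapping ranges, 11.4 to 36.4 and 28.4 to 67.4 (2.08-fold, 1.46 to 2.96, adjusted p = 0.199). Both passed DESeq2's test and the test among males.

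Ripk4, a kinase of epithelial differentiation, was near the limit of detection. It had 13 reads in all 8 non-carriers, 5 of which had none, and 168 reads in the carriers, 8 to 48 in each. The pooled ratio was 11.7 (95% interval 6.67 to 22.5, counting error only), and the adjusted p was 0.0804. The 4 wild-type libraries were at 0 and 3 of the 4 5xFAD libraries were above it. Chaf1b, a chromatin assembly subunit also above 1.5-fold in its interval, had 105 reads in carriers and 32 in non-carriers, a pooled ratio of 2.98 (1.99 to 4.57). The other large fitted differences, 2.55 for the provisional gene Gm31258 and 1.65 for Ripply3, a transcriptional corepressor, had SE values of 1.12 and 0.989 and libraries at 0 in both groups.

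The list of adhesion and extracellular proteins, which also holds the deubiquitinase Usp25, had 8 of 9 positive and a median of 0.69 on the log2 scale. Jam2, a junctional adhesion molecule of endothelium and glia, had the smallest p of the segment. It stood at 52.3 to 68.3 CPM (median 58.7) in non-carriers and 84.8 to 115 (median 93.7) in carriers, with no overlap and a difference of 1.67-fold (1.47 to 1.90, adjusted p = 0.00105). Ncam2, a neural cell adhesion molecule, stood at 47.6 to 72.9 CPM (median 62.5) against 74.7 to 122 (median 106) in carriers (1.69-fold, 1.43 to 1.99, adjusted p = 0.00727). Its lowest carrier lay just above the highest non-carrier.

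Bace2, a protease related to the beta-secretase, had medians of 3.76 and 7.45 CPM with 6 of 8 carriers above the highest non-carrier (1.94-fold, 1.42 to 2.64, adjusted p = 0.163). Outside this list, Chodl, a lectin-like membrane protein, and Cyyr1, a small membrane protein, had differences of 1.99-fold and 2.15-fold with adjusted p-values of 0.355 and 0.448. The matrix protease Adamts1 had the smallest interaction p of the segment. Its difference was -0.30 on the log2 scale between Dp16 and wild-type and 1.70 between 5xFAD-Dp16 and 5xFAD, and the interaction did not pass (adjusted p = 0.522). Cldn14, a tight-junction claudin, was level between the groups, with medians of 2.12 and 2.18 CPM and a log2 difference of -0.01 (SE 0.291).

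The list of vesicle traffic, endocytosis and synapse genes, which also holds others such as Brwd1, Cryzl1 and Donson, was positive in 12 of 12, with a median of 0.75 on the log2 scale, and Ncam2 was the 1 that passed. App, the amyloid precursor, is the best known of them, since an extra copy of the human gene is tied to the early Alzheimer pathology of Down syndrome. It stood at 1130, 840, 1139 and 1505 CPM in wild-type and 917, 892, 603 and 932 in 5xFAD mice. In Dp16 it stood at 1535, 1626, 1887 and 1402 CPM and in 5xFAD-Dp16 at 2071, 1624.5, 1720.0 and 1570.6. The Dp16 library at 1402 was the only carrier below the highest non-carrier, wild-type replicate 4, and the difference was 1.68-fold (1.35 to 2.09, adjusted p = 0.0804). It passed without wild-type replicate 4 (adjusted p = 0.00446), with DESeq2 (0.000682) and with the length trend removed (0.00113, where the difference was 0.55 on the log2 scale).

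Synj1, a phosphatase of synaptic vesicle recycling, had medians of 135 and 212 CPM (1.79-fold, 1.33 to 2.42, adjusted p = 0.243), with 6 of 8 carriers above the highest non-carrier. Itsn1, an endocytic scaffold, had medians of 37.2 and 73.3 CPM (1.95-fold, 1.34 to 2.85, adjusted p = 0.355), with 4 of 8 above. Both are long transcripts. With the length trend removed their differences fell to 0.67 and 0.71 on the log2 scale, from 0.84 and 0.96, and both then passed (adjusted p = 0.0207 and 0.0097).

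Genes of transcription and chromatin were positive in 18 of 18, with a median of 0.50 on the log2 scale, and none passed. Brwd1, a bromodomain protein, stood at 56.5 to 75.05 CPM in non-carriers and 83.1 to 106 in carriers, with no overlap (1.38-fold, 1.22 to 1.57, adjusted p = 0.0598). Gabpa, the ETS factor of the promoter motif above, stood at 8.33 to 17.1 and 18.8 to 25.4 CPM (1.59-fold, adjusted p = 0.0804). Morc3, a nuclear-body ATPase, stood at 18.8 to 30.9 and 34.2 to 41.5 CPM (1.47-fold, adjusted p = 0.0816). These 3 separated the groups in all 16 libraries without passing the test.

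The oligodendrocyte factors Olig1 and Olig2 had differences of 1.57-fold (1.22 to 2.01) and 1.40-fold (1.02 to 1.94), with overlapping ranges and adjusted p-values of 0.343 and 0.448. Myelinating oligodendrocyte markers had a median of 0.02 on the log2 scale and precursor markers of 0.18, with none past the threshold in either list. Hmgn1, a nucleosome-binding protein, had medians of 117 and 150.5 CPM (1.25-fold, 1.03 to 1.52, adjusted p = 0.448). Runx1, a blood and microglial transcription factor, had medians of 0.389 and 0.868 CPM and an interval of 0.523-fold to 8.04-fold. Son, a nuclear-speckle splicing factor, had medians of 153 and 190.2 CPM with 7 of 8 carriers above the highest non-carrier. Its interval of 1.12-fold to 1.48-fold ended below 1.5-fold. Setd4, a methyltransferase, had medians of 4.75 and 5.27 CPM and a log2 difference of 0.09 (SE 0.271).

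Genes of protein fate were positive in 10 of 10 with a median of 0.45 on the log2 scale, and 2 passed. Ttc3, a ubiquitin ligase, stood at 825 to 1025 CPM (median 914) in non-carriers and 1182 to 1459 (median 1364) in carriers. The difference was 1.44-fold (1.29 to 1.61, adjusted p = 0.00366), with no overlap. The call ended when the length trend was removed (log2 difference 0.27, adjusted p = 0.336). Ltn1, the ligase of ribosome quality control, stood at 21.1 to 36.0 CPM (median 27.1) against 37.4 to 49.1 (median 43.0) in carriers (1.52-fold, 1.32 to 1.76, adjusted p = 0.0155). Leaving out wild-type replicate 1 or 3, Dp16 replicate 1 or 5xFAD-Dp16 replicate 2 ended the Ltn1 call (adjusted p up to 0.0865), as did removal of the length trend (adjusted p = 0.250).

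Cct8, a chaperonin subunit, had medians of 223 and 327 CPM (1.36-fold, 1.203 to 1.54, adjusted p = 0.0617), and the annotated end of Usp16 overlaps it. The deubiquitinase Usp16 had medians of 29.9 and 36.0 CPM and an interval of 1.02-fold to 1.44-fold. Whether the authors' counting used strand is not given in the sources used here, so reads of such overlapping genes cannot be assigned with certainty. Rwdd2b, a gene of unclear function, stood at 9.19 to 18.6 and 19.1 to 28.5 CPM with no overlap (1.63-fold, adjusted p = 0.0804). Usp25, a deubiquitinase, had medians of 20.5 and 32.8 CPM (1.58-fold, adjusted p = 0.163).

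A mixed list of mitochondrial, redox and other metabolic genes of the segment was positive in 26 of 26, with a lower median of 0.38 on the log2 scale. Of its members 3 passed: Rcan1, described above, and B3galt5 and Tmem50b. B3galt5, a galactosyltransferase, stood at 21.6 to 38.5 CPM (median 30.2) in non-carriers and 42.2 to 54.2 (median 48.3) in carriers (1.67-fold, 1.44 to 1.94, adjusted p = 0.00296). Tmem50b, an endoplasmic reticulum membrane protein, stood at 92.7 to 107 CPM (median 98.3) against 132 to 167 (median 144) in carriers (1.5-fold, 1.34 to 1.68, adjusted p = 0.00198). Neither overlapped between the groups, and both passed in all 16 fits that left out a library and under the 10 other settings tried.

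Sod1, the cytosolic superoxide dismutase, had medians of 510 and 668 CPM, with 7 of 8 carriers above the highest non-carrier (1.33-fold, 1.14 to 1.55, adjusted p = 0.301). It is a short transcript, and with the length trend removed its difference was 0.57 on the log2 scale with an adjusted p of 0.000349. Gart, an enzyme of purine synthesis, had medians of 39.2 and 52.4 CPM, with 7 of 8 carriers above, and an interval of 1.14-fold to 1.49-fold. C2cd2, a lipid-binding membrane protein near the end of the segment, stood at 1.98 to 7.18 CPM (median 5.04) in non-carriers and 7.91 to 12.4 (median 10.1) in carriers. Its difference was 2.36-fold (1.70 to 3.28, adjusted p = 0.0419), and it was not stable. The call held without wild-type replicate 2 or 4, Dp16 replicate 4 or 5xFAD replicate 3, and ended without each of the 12 other libraries (adjusted p up to 0.166) and without the sex term (0.0636).

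**Figure D3:**
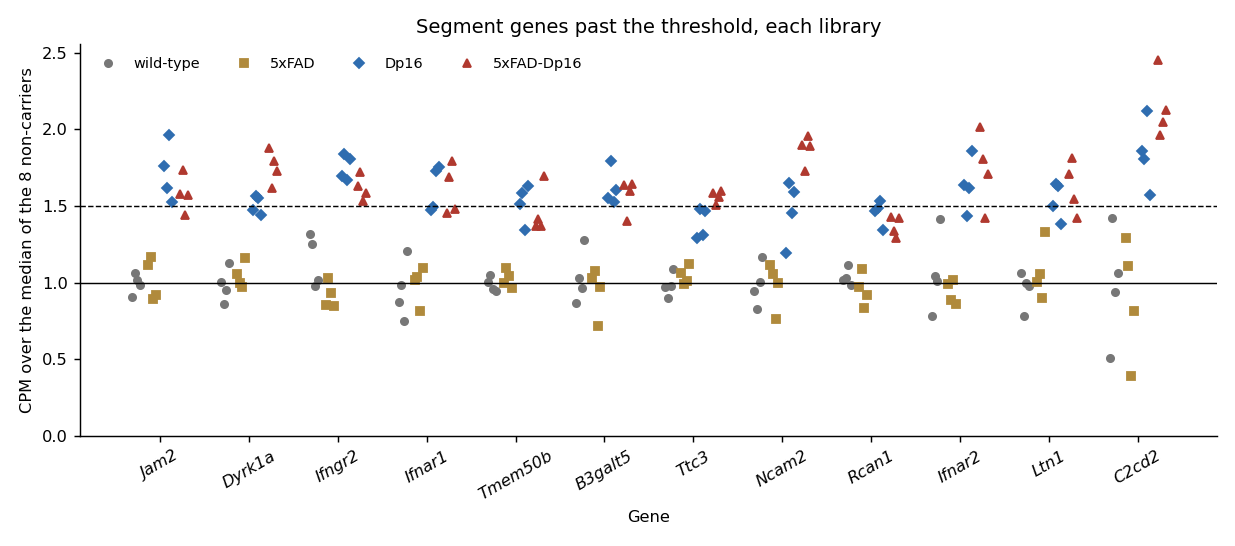
CPM of each library divided by the median of the 8 non-carriers (vertical axis) for the 12 segment genes past the threshold (horizontal axis, by adjusted p). Each point is a library, the solid line is the non-carrier median and the dashed line 1.5-fold. In each gene the 8 carriers lie above the 8 non-carriers, and C2cd2 has the widest spread.

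The 4 negative differences of the segment were those of Cldn14, 2 lncRNAs and a pseudogene, and Samsn1 came next. Samsn1, an adaptor protein of immune cells, stood at 1.39 to 8.85 CPM (median 5.29) in non-carriers and 2.84 to 5.48 (median 4.08) in carriers. Its 5xFAD term in the same model was 1.204 on the log2 scale, and the duplication term was 0.00. Its SE was 0.140, but for a difference this close to 0 the SE, obtained by division, is unstable, and it was 0.265 with DESeq2 size factors and 0.253 by DESeq2. The backgrounds had opposite signs, 0.53 for Dp16 against wild-type and -0.56 for 5xFAD-Dp16 against 5xFAD, and the interaction did not pass (adjusted p = 0.522). Gm9843, a processed pseudogene whose reads may be shared with its parent gene, stood at 19.2 to 49.7 CPM and 16.95 to 29.0 in carriers, a log2 difference of -0.45 (SE 0.171, adjusted p = 0.448). The lncRNAs A930006K02Rik and Gm49708 had -0.35 (SE 0.377) and -0.73 (SE 0.762), the latter with 0 to 0.990 CPM in non-carriers and 0 to 0.664 in carriers.

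In each background taken alone, the segment's shift was of similar size, but few genes passed. Between Dp16 and wild-type its median was 0.55 on the log2 scale with 94 of 105 positive, and between 5xFAD-Dp16 and 5xFAD it was 0.51 with 89 positive. These 2 comparisons share no libraries. In all, 3 genes passed between Dp16 and wild-type, 0.0176% of those tested, and 2 of these, Jam2 and Morc3, are segment genes, the other being nonagouti. Between 5xFAD-Dp16 and 5xFAD 0 passed (0%), while DESeq2 called 740. At an unadjusted p under 0.05, 42 segment genes were higher in 5xFAD-Dp16 than in 5xFAD, against 11.8% of all genes, and 54 were higher in Dp16 than in wild-type, against 2.48%. A positive difference in both backgrounds was seen in 81 of the 105, against 28.0% of other genes. The sizes of the differences were only weakly related between the backgrounds. Across segment genes Spearman's rho was 0.101 and the Pearson correlation 0.359, against 0.141 and 0.094 across other genes.

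The interaction, which asks whether the duplication acts differently with 5xFAD, passed in 0 genes (0%) by edgeR and in 21 by DESeq2. At an unadjusted p under 0.05 it took in 1591 genes, 9.35% of those tested, of which 18 were segment genes. The median interaction of the segment genes was -0.05 on the log2 scale. Outside the segment the smallest interaction p belonged to Cd86, a costimulatory receptor of myeloid cells on another stretch of chromosome 16. It differed by 0.88 on the log2 scale between Dp16 and wild-type and by -0.84 between 5xFAD-Dp16 and 5xFAD (adjusted p = 0.203).

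Gene length set apart the values of the segment in the 2 backgrounds. The 52 shorter segment genes, under 3174 bases of annotated exon length, had a pooled median of 1.28-fold, and the 53 longer ones 1.63-fold. Between Dp16 and wild-type the shorter and longer genes were close, at 1.45-fold and 1.51-fold. Between 5xFAD-Dp16 and 5xFAD they stood at 1.21-fold and 1.78-fold. With each library's length trend removed the pooled medians were 1.33-fold and 1.45-fold, and those of the 5xFAD background 1.30-fold and 1.47-fold. Outside the segment, Spearman's rho between a gene's pooled difference and its length was 0.383 across genes, against 0.458 across the segment's genes, which are not independent replicates.

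**Figure D4:**
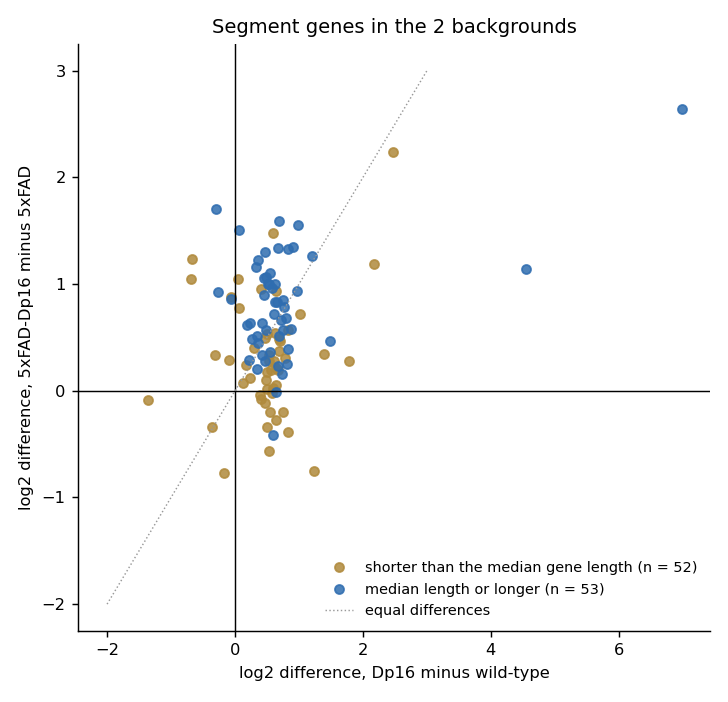
Difference between Dp16 and wild-type (log2, horizontal axis) and between 5xFAD-Dp16 and 5xFAD (log2, vertical axis) for the 105 tested segment genes, coloured by gene length. The dotted line marks equal differences. Of the points, 81 lie above 0 on both axes, and shorter genes lie lower on the vertical axis than longer ones, with medians of 1.21-fold and 1.78-fold.

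The 1 gene outside the segment past the threshold was nonagouti (symbol a, chromosome 2, 154791402 to 155051012), which encodes the agouti signalling protein of coat colour. It had 414 reads in the carriers, 38 to 98 in each, and 5 reads in the non-carriers, all in 5xFAD replicate 4. The pooled ratio was 75.1 (95% interval 31.9 to 232, counting error only), and edgeR's adjusted p was 0.000898. All 8 carriers lay above all 8 non-carriers, at 2.03 to 4.96 CPM against 0 to 0.281. Its annotated span overlaps Raly and Eif2s2, which had log2 differences of -0.26 (SE 0.108) and -0.30 (SE 0.180), and the next tested genes on either side, the pseudogene Rpl5-ps2 and Ahcy, had -0.39 (SE 0.365) and -0.04 (SE 0.0935). None of these 4 passed.

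The other genes outside the segment that separated the groups did not pass, and they are named after their values were seen. Otof, a calcium sensor of vesicle release, had medians of 2.87 and 4.74 CPM (1.97-fold, adjusted p = 0.341), and Adamts2, a collagen-processing protease, 1.64 and 3.05 CPM (2.03-fold, adjusted p = 0.427). Below all non-carriers lay Mcam, an adhesion molecule of vessels, with medians of 15.3 and 10.7 CPM (0.727-fold, adjusted p = 0.341). Acat3, an acetyl-coenzyme A acetyltransferase, had medians of 10.7 and 7.01 CPM (0.643-fold, adjusted p = 0.167). The lncRNA C230057M02Rik had 14.6 and 9.84 CPM (0.677-fold, adjusted p = 0.0804). The Y-linked translation factor gene Eif2s3y stood at 14.8 to 21.6 CPM in the 6 male carriers and 26.0 to 46.5 in the 4 male non-carriers. Its adjusted p in the model over all libraries was 0.0816. The ranges of the Y-linked genes Ddx3y, Uty and Kdm5d overlapped between the same males. Their medians were 51.7, 19.6 and 18.2 CPM in male non-carriers and 52.8, 15.5 and 14.7 in male carriers.

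Human chromosome 21 has counterparts on 2 other mouse chromosomes that Dp16 does not duplicate. The 30 tested ones on chromosome 10 had a median of 0.14 on the log2 scale with 21 positive, and the 11 on chromosome 17 a median of 0.06 with 6 positive, and none passed. The largest difference among them was that of Pdxk, the vitamin B6 kinase, with medians of 46.0 and 71.9 CPM and overlapping ranges (1.49-fold, adjusted p = 0.448).

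Beyond the segment, no member of any pathway or cell type list passed, so these are given as medians over the list, where all tested genes had 0.01 on the log2 scale and -0.05 with the length trend removed. The cytosolic ribosomal proteins, whose transcripts are short, had a median of -0.35 with 0 of 50 positive, and -0.23 with 1 positive after the length trend was removed. Nuclear oxidative phosphorylation genes had -0.27 with 1 of 45 positive, and -0.16 with 4 positive after it. The ribosomal median was -0.07 between Dp16 and wild-type and -0.68 between 5xFAD-Dp16 and 5xFAD. Rps27, a ribosomal subunit protein, stood at 312 to 976 CPM in non-carriers and 299 to 584 in carriers (0.700-fold, adjusted p = 0.448), and Ndufb9, of complex I, had 0.741-fold (adjusted p = 0.448).

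Disease-associated microglia genes, which rise around amyloid plaques, had a median of -0.08 with 15 of 35 positive. The median was 0.10 between Dp16 and wild-type and -0.32 between 5xFAD-Dp16 and 5xFAD. Cd9, a tetraspanin, stood at 107 to 314 CPM in non-carriers and 111 to 165 in carriers (0.659-fold, adjusted p = 0.264). Timp2, a metalloprotease inhibitor, went the other way, with medians of 145 and 198 CPM (1.35-fold, adjusted p = 0.301). Ccl6, a chemokine, had medians of 14.99 and 6.25 CPM (0.525-fold, adjusted p = 0.364). In bulk tissue, fewer cells of a type and less RNA per cell cannot be told apart. Homeostatic microglia genes had a median of 0.07 with 17 of 23 positive, and the antigen presentation list 0.23 with 14 of 18 positive, including the peptide transporter Tap1 (medians 1.28 and 2.40 CPM, adjusted p = 0.448).

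Among neuronal and glial lists, inhibitory neuron genes had a median of 0.23 with 21 of 26 positive. With the length trend removed it was 0.14 with 16 positive, and the members of the list did not move one way. The calcium-binding protein gene Calb2 had medians of 15.1 and 23.05 CPM (1.53-fold, adjusted p = 0.373), the neuropeptide genes Cort and Npy 1.44-fold and 1.18-fold (both with an adjusted p of 0.427), and Pvalb, which marks fast-spiking interneurons, 0.635-fold (adjusted p = 0.427). Excitatory neuron markers had 0.20 with 19 of 26 positive, and 0.03 with 14 positive after the length trend was removed. Astrocyte genes had 0.12 and reactive astrocyte genes 0.20, each with 14 of 20 positive. With the length trend removed these medians were 0.07 and 0.11. Members of the reactive list went both ways, with the protease inhibitor Serpina3n at 1.499-fold and S100a10 at 0.728-fold (both with an adjusted p of 0.448). Immediate early genes had -0.02 with 19 of 38 positive (Btg2, an antiproliferative factor, 0.633-fold, and Maff 1.77-fold). Their median was -0.21 between Dp16 and wild-type and 0.45 between 5xFAD-Dp16 and 5xFAD. Glucocorticoid-responsive genes had 0.17 (Fkbp5, a receptor cochaperone, 1.58-fold) and the unfolded protein response -0.12 (Calr, a calcium-binding chaperone, 0.832-fold). No gene of these lists was past the threshold.

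Markers of other tissues differed between libraries. Endothelial genes had a median of 0.28 and mural and fibroblast genes 0.32, each with 16 of 20 positive. With the length trend removed these medians were 0.19 and 0.21, each with 15 positive. Of the endothelial genes, the lipid transporter Mfsd2a was higher (1.63-fold, adjusted p = 0.355) and Itm2a lower (0.749-fold, adjusted p = 0.448). Choroid plexus and ependyma genes had a median of 0.88 with 12 of 14 positive, against medians of 0.42 and 0.47 within the 2 backgrounds. Their summed level was 905 CPM in 5xFAD-Dp16 replicate 2, 197 to 325 in the other 7 carriers and 176 to 268 in non-carriers. The hormone co-receptor gene Kl was among them (medians 0.439 and 1.19 CPM, adjusted p = 0.448). A list of 5 nasal epithelium and olfactory nerve genes, chosen after the data were seen, had 4 tested members, all lower, with summed levels of 0.239 to 4.10 CPM in carriers and 1.18 to 41.7 in non-carriers. The part of these markers in the results was not tested.

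The counts outside the segment moved with the libraries used and the tool. Among the 10 males alone, a fit with fewer libraries in which carriers and non-carriers also differed in the length trend given above, 1119 genes were higher and 978 lower, of which 38 and 1 were segment genes, and the segment median was 0.59. The median of the tested segment genes lay between 0.46 and 0.59 under all alternative settings. Without wild-type replicate 4, 28 genes were higher and 7 lower, and 23 of the 35 were segment genes. The fits without 1 of the other 15 libraries called 10 to 18 genes.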

How the data were processed

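RNA-seq of 16 mouse brain cortex samples was analysed, each library grouped by its labelled genotype. Per the submitters' processing notes, the authors used bcl2fastq, FastQC 0.11.5, HISAT2 2.1.0, SAMtools 1.5 and HTSeq 0.6.1 with GRCm38, and deposited read counts per Gencode gene (release 24) for 55385 genes. The strand setting of the counting is not given in the sources used here. The authors' deposited RPKM values served only to check the counts, with 100% of nonzero values matching within 0.1%, and to derive gene lengths. Coordinates came from Gencode release 21, which matched 55144 genes.

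Counts were tested with edgeR 4.0.16 (R 4.3.3) by robust quasi-likelihood after filterByExpr and TMM scaling, with terms for 5xFAD status, sex and the duplication, and Benjamini-Hochberg adjustment over 17019 genes. A model of group means and sex gave the differences within each background and the interaction. Sex was added to the terms because it is unequal between the groups. The common biological coefficient of variation was 0.276. Standard errors are the log2 difference divided by the square root of F. The log2 CPM behind the library medians and the length trend used a prior count of 2. The length trend was a loess fit (span 0.5) in each library, used as an offset. Read-ratio intervals are exact 95% intervals and cover counting error only.

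Alternatives were DESeq2 1.42.0, other scaling and filters, males only, no sex term, blocks by replicate number, length correction and leaving out each library. The models were tested on simulated data. Library totals of 12483286 to 20385010 limit precision for genes near 1 CPM. Named genes were label checks, the segment genes of smallest p and of smallest and largest difference, called genes outside it, up to 4 per list, the listed receptors, flanking genes, and those of smallest interaction p. The segment, lists and named genes were chosen with earlier results of these data known.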

Additional observations from a re-analysis of the deposited data

Results flagged for a closer look

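In 10 of 162 groups of 4 or 8 libraries, 1 library lay farther from the others than Dixon's 95% limit allows. Chance does this in about 1 in 20 groups. Among segment genes, Ifnar2 was 19.1 CPM in wild-type replicate 4 against 10.6 to 14.1 in the other non-carriers. Rwdd2b was 28.5 CPM in Dp16 replicate 4 against 19.1 to 23.1 in the other carriers. Ripk4 was 2.66 CPM in 5xFAD-Dp16 replicate 2 against 0.456 to 1.35. At the flanks, Cadm2 was 172.9 CPM in wild-type replicate 2 against 195 to 213 in the other non-carriers, and A630089N07Rik was 0.939 CPM in 5xFAD-Dp16 replicate 3 against 1.48 to 1.84 in the other carriers.

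The nonagouti gene a stood apart in both groups, at 0.281 CPM in 5xFAD replicate 4 with the other 7 non-carriers at 0, and at 4.96 CPM in Dp16 replicate 3 against 2.03 to 2.91 in the other carriers. Calb2 was 12.2 CPM in 5xFAD-Dp16 replicate 4 against 20.1 to 26.3 in the other carriers. Mfsd2a was 4.15 CPM in 5xFAD replicate 3 against 8.65 to 11.7 in the other non-carriers, and Mcam was 21.9 CPM in wild-type replicate 2 against 14.2 to 17.1.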

How the results depend on the processing

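The positive median of the segment held under each alternative setting, while counts of calls moved. Leaving out 1 library at a time gave 10 to 35 genes past the threshold, 9 to 23 in the segment and 1 to 12 outside it. The segment median was then 0.49 to 0.54, with 56 to 63 intervals above 0 and 77 to 99 covering 1.5-fold. The counts were 0 to 3 between Dp16 and wild-type, 0 to 42 between 5xFAD-Dp16 and 5xFAD (42 without wild-type replicate 2), and 0 to 1 for the interaction. Males alone gave 2097 (39 in the segment, 2058 outside), a segment median of 0.59, 0 between Dp16 and wild-type and 3956 between 5xFAD-Dp16 and 5xFAD. DESeq2 gave 84 (36 and 48), with 35, 740 and 21 in the within-background comparisons and the interaction. With no filter on low counts these were 561 (46 and 515), 43, 2215 and 346, with a segment median of 0.57 and 155 intervals covering 1.5-fold, over more genes. With the length trend removed, 25 passed (23 higher, 2 lower), 21 in the segment and 4 outside, with 1 and 3 within the backgrounds. Without the sex term 2 genes outside the segment passed and 16 between 5xFAD-Dp16 and 5xFAD. Without wild-type replicate 2 and 5xFAD replicate 3, the libraries of lowest correlation with the rest, 1 passed between Dp16 and wild-type. That setting and the length correction with a block were chosen after seeing the data. The cause of these shifts was not tested.

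Replicates with the same number did not deviate together, with a correlation over 0.1 in 5 of 24 same-numbered pairs and 16 of 72 others, so the numbers were not taken as a pairing. With the replicate number as a block, 8 genes passed, 7 in the segment, and 0 between Dp16 and wild-type. The segment calls that ended were those of Ncam2, Rcan1, Ifnar2, Ltn1 and C2cd2. With the length trend removed as well, 9 passed, and again 0 between Dp16 and wild-type. In that fit the calls of Jam2, Dyrk1a and Ttc3 ended too.

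Of the 76 named genes, those that changed sign differed by at most 0.12 in size in the reported values, apart from A930006K02Rik (-0.35), whose sign turned only without wild-type replicate 1. Samsn1 was -0.100 without the sex term, -0.0759 in males, -0.00558 with DESeq2 size factors, -0.00571 with DESeq2 and -0.00973 with the filter of 1 CPM. Cldn14 was 0.0128 with the block, 0.0443 in males, 0.0161 with no filter, 0.0302 without the length trend, 0.0408 with that and the block, and 0.199 without both libraries. Mir99ahg was -0.295 in males, -0.0487 without the length trend and -0.0366 with the block too. Robo1 was -0.181 and -0.176 in the same fits and -0.116 without both libraries. Robo2 was 0.144 in males and 0.00737 with no filter, and Gbe1 -0.0107 with the length trend removed and the block. B230307C23Rik was 0.0127 without the sex term, 0.0156 with no filter and 0.251 without both libraries, and Thy1 -0.0157 without the sex term and -0.0260 without both libraries. In males Setd4 was -0.0597 and Cd86 -0.0361. Leaving out libraries, Samsn1 ranged from -0.158 to 0.0911, Cldn14 from -0.106 to 0.113, Setd4 from -0.0696 to 0.301 and A930006K02Rik from -0.542 to 0.00434. Mir99ahg ranged from -0.00416 to 0.214, Cadm2 from -0.0665 to 0.00309, Robo1 from -0.0611 to 0.158 and Robo2 from -0.0732 to 0.0732. B230307C23Rik ranged from -0.134 to 0.140, Thy1 from -0.0165 to 0.0428 and Cd86 from -0.0696 to 0.164.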

Other observations

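Several gene groups not described above also had no member past edgeR's threshold. Circadian clock genes had a median log2 difference of 0.22 between carriers and non-carriers, with 15 of 19 positive, and 0.09 with 13 positive once the length trend was removed. Synaptic proteins had 0.25 with 26 of 30 positive, and 0.12 with 18 positive after it. The clustered protocadherins, which give neurons their surface identity, had 0.36 with 17 of 22 positive, and 0.24 with 15 positive after it. In the 3 lists the median was 0.08, -0.006 and 0.02 between Dp16 and wild-type, against 0.41, 0.53 and 0.78 between 5xFAD-Dp16 and 5xFAD.

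Transcripts of the mitochondrial genome had a median of 0.14 with 10 of 13 positive, while mt-Nd6, a complex I subunit gene, had -0.33 (adjusted p = 0.448). Heat shock genes had -0.11 with 4 of 17 positive, and cell cycle genes -0.14 with 8 of 20. Antioxidant genes had 0.005 with 15 of 27 positive and cholesterol synthesis genes 0.02 with 16 of 25. Complement had -0.03 with 9 of 19 positive, myeloid and Fc receptor genes -0.03 with 14 of 29, perivascular and blood-derived macrophages -0.02 with 6 of 12, and lymphocytes -0.04 with 3 of 6. Markers of striatum had 0.08 with 11 of 16 positive and those of hippocampus and thalamus 0.32 with 12 of 15.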
